A study of Mus musculus with 16 samples.

Results

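The genes described here are 9 enzymes and transporters of arginine and tryptophan metabolism: Slc7a2, Arg1, Arg2, Nos2, Ass1, Asl, Odc1, Ido1 and Il4i1. They were taken by name from the 31053 features of each library, and all 9 were found. Sorted CD45+ leukocytes from subcutaneous flank tumors of C57BL/6J mice were profiled by droplet single-cell RNA-seq, with 4 libraries in each of 4 groups. The groups were untreated MC38 (MC38 NT), MC38 given radiation therapy (MC38 RT), untreated Panc02-SIY (Panc02-SIY NT) and irradiated Panc02-SIY (Panc02-SIY RT). MC38 is a mouse colon carcinoma line, and Panc02-SIY is a mouse pancreatic carcinoma line that carries the SIY model antigen. Radiation was 1 dose of 12 Gy aimed under CT guidance, and the tumors were taken 24 h later, so each tumor model is 1 line at 1 time. The mice were 6 to 8 weeks old, and the labels name no transgene and no other agent. The labels and design text give 4 animals a group and the study's methods give 3, so p-values measure the spread between these libraries.

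L-arginine enters myeloid cells through cationic amino acid transporters such as Slc7a2, and is then shared between competing enzymes. Arginases (Arg1 in the cytosol, Arg2 in mitochondria) split it into ornithine and urea, and Odc1 turns ornithine into putrescine, the first polyamine. Nos2, the inducible nitric oxide synthase, makes nitric oxide and citrulline, and Ass1 followed by Asl rebuilds arginine from citrulline. Ido1 oxidizes tryptophan to the kynurenine path, and Il4i1 is a secreted oxidase of aromatic amino acids. Arg1 and Nos2 are widely used as markers of alternatively and classically activated macrophages, and Arg1, Ido1 and Il4i1 are known for depriving tumor T cells of amino acids.

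The genes lie on separate chromosomes or far apart (GRCm38.p6, protein coding throughout): Ass1 at chr2:31470270-31520670, Asl at chr5:130011258-130024381, Il4i1 at chr7:44836288-44840809, Ido1 at chr8:24584133-24596952, Slc7a2 at chr8:40862341-40922070, Arg1 at chr10:24915207-24927470, Nos2 at chr11:78920787-78960226, Odc1 at chr12:17544808-17551502 and Arg2 at chr12:79130788-79156301. In the GENCODE annotation Il4i1 is tagged as overlapping another locus, and reads of the shared stretch cannot be told apart. RefSeq (GRCm38.p6) gave a promoter for 3 of the 9 members, and those of Ass1 and Il4i1 are shown, as a member found in many leukocyte classes and a member found mainly in dendritic cells. Each line is 250 bases just before the gene's start, on the plus strand, at chr2:31470020-31470269 for Ass1 and chr7:44836038-44836287 for Il4i1. Capitals mark matches to GGGCGG (a GC box) or CACGTG (an E-box), each searched on both strands.
Ass1: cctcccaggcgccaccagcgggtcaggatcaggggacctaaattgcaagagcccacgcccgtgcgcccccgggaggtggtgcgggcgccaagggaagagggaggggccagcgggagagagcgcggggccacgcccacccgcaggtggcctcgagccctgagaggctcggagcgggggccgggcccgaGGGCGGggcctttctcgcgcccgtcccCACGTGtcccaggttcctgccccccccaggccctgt
Il4i1: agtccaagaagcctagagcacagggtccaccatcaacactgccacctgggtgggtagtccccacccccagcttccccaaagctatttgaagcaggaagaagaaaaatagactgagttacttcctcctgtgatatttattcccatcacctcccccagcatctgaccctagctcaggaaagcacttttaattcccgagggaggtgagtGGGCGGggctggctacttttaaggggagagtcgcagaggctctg
The GC box begins at base 188 for Ass1 and at base 207 for Il4i1, and 32.74% of 32851 promoters of this length hold one. The E-box begins at base 215 for Ass1, and 6.02% of promoters hold one.

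The libraries differ in ways that bear on every value below. MC38 libraries share cell barcodes: 9843 called barcodes are only 2632 distinct sequences, 769 of which occur in all 8 MC38 libraries, and a median of 83.3% of the smaller library's barcodes recur in the other library of a pair. In Panc02-SIY pairs the median is 5.54%. Every pair of MC38 libraries, untreated with irradiated ones included, shares at least 830 barcodes. MC38 libraries are thus not shown to be independent samples, and each p-value that involves MC38 is read with that limit. Every fit was therefore repeated with each barcode kept only in the library where it has the most UMIs ("richest library"), and the value is given where a call of a member involving MC38 was lost or gained. This removes 13.6% to 57.2% of the UMIs of an MC38 library and under 1% of those of any Panc02-SIY library. MC38 libraries hold 3240877 to 10121198 UMIs with a median of 1419 to 2070.5 UMIs per barcode, and Panc02-SIY libraries 5327146 to 43776342 UMIs with a median of 3175 to 6412. Levels are CPM, the UMIs of a gene per 1000000 UMIs of that population in that library. Between the tumors, scaling by library size alone in place of TMM moves the median of all genes by -0.24 on the log2 scale in untreated and by -0.41 in irradiated tumors. The shift is -0.09 for radiation in MC38 and 0.07 in Panc02-SIY, and differences are given relative to the TMM scale.

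Classes were drawn from 28 clusters of 28678 barcodes, found without the member genes, and named only where fixed markers were raised. Ptprc, which encodes CD45, was detected in every group, with a median of 448 to 1869 CPM. Macrophage-like barcodes were 75.2% to 82.1% of each MC38 library but 1.53% to 4.53% of each Panc02-SIY library, in all 182 barcodes of Panc02-SIY NT and 234 of Panc02-SIY RT. With each barcode only in its richest library the MC38 shares were lower. They were 151 of 262, 126 of 218, 207 of 345 and 347 of 502 barcodes in MC38 NT. In MC38 RT they were 75 of 147, 126 of 192, 195 of 357 and 376 of 609. Different clusters fill this class in each tumor. In MC38 it spreads over clusters 1, 3, 8, 10 and 16, and in Panc02-SIY cluster 10 gives 143 barcodes in each group and cluster 8 gives 20 (NT) and 63 (RT). The sum of 12 macrophage markers in the class was 24947 to 29465 CPM in MC38 and 3683 to 18179 CPM in Panc02-SIY. The sum of 11 monocyte markers was 464 to 2561 CPM in Panc02-SIY NT and 4349 to 4938 CPM in Panc02-SIY RT, against 2222 to 3887 CPM in MC38. Clusters 2 and 9 of Panc02-SIY raise 7 and 8 macrophage markers but failed the naming rules and stay unnamed. With the unnamed cluster 23 they hold 2119 barcodes in Panc02-SIY NT (10% to 30.4% of a library) and 1193 in Panc02-SIY RT (7.83% to 20.4%). Unnamed barcodes are 48.8% of Panc02-SIY NT, 32.4% of Panc02-SIY RT and 10.5% and 9.31% of the MC38 groups.

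**Figure D1:**
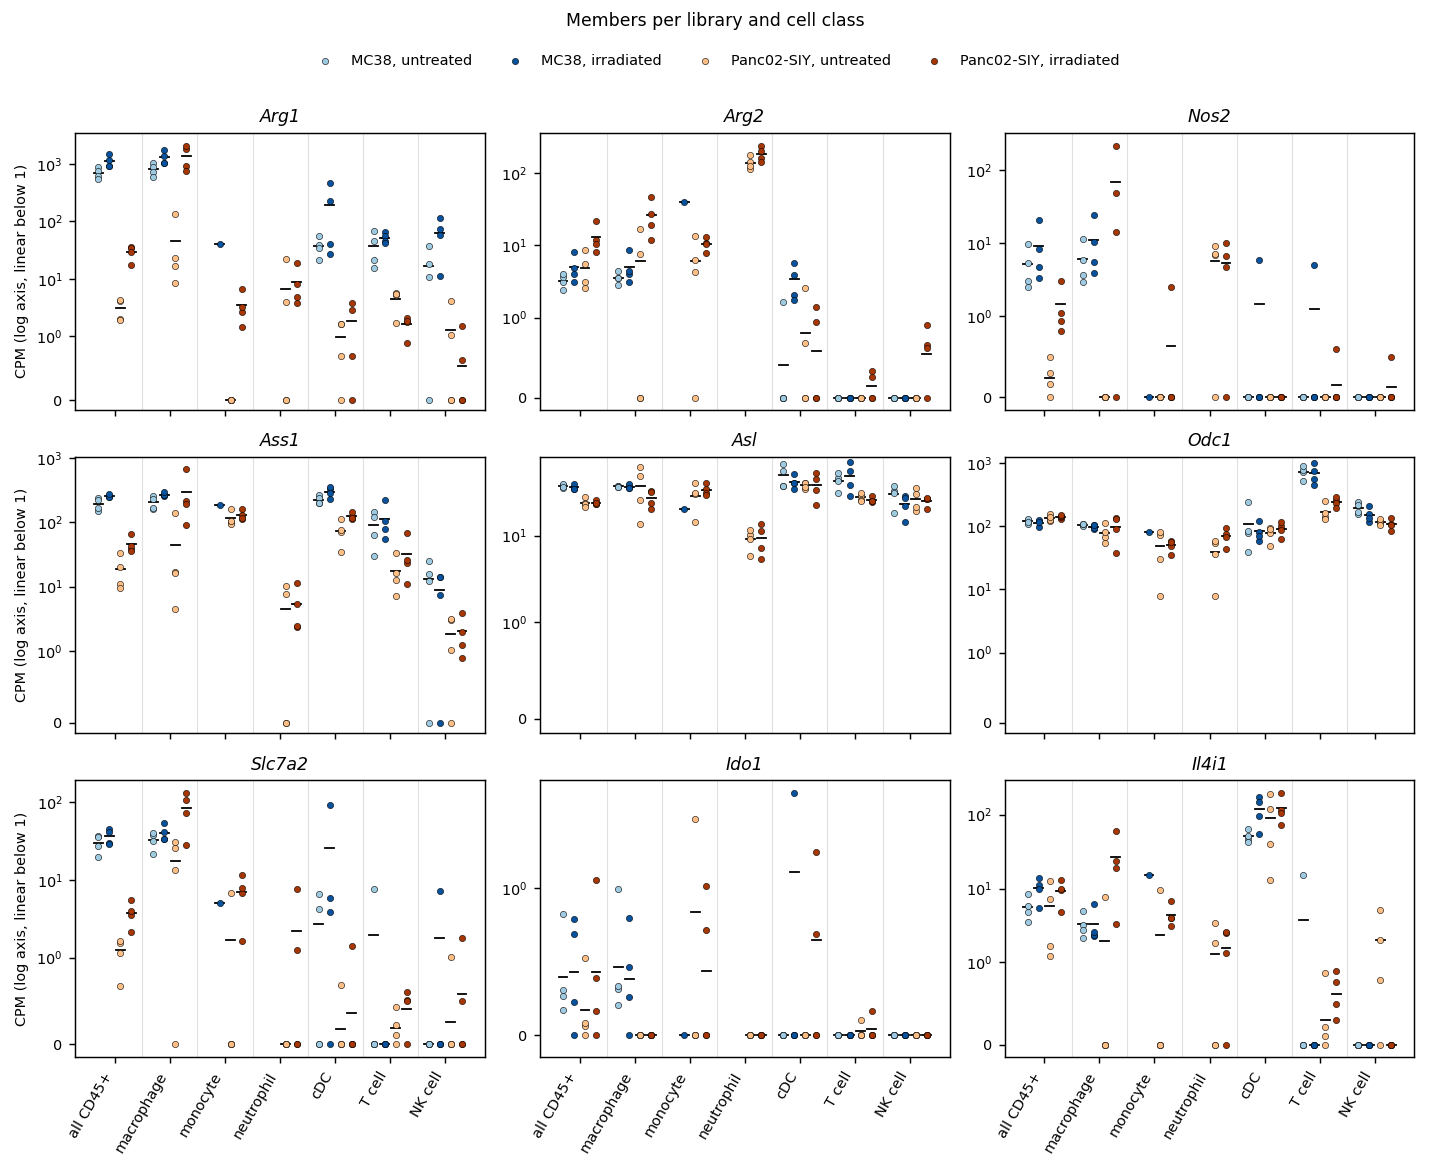
Level of each of the 9 genes (CPM, on an axis that is linear below 1 and logarithmic above) in 7 leukocyte populations, for the 4 groups. Each point is 1 library with at least 10 barcodes of the population and bars are group means. Arg1 and Slc7a2 stand highest in macrophage-like barcodes, Arg2 in neutrophil-like barcodes and Il4i1 in cDC-like barcodes, whereas Odc1 and Asl are spread over all populations.

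Differences were tested with edgeR on UMIs summed per library, and called at an adjusted p under 0.1 with a fold above 1.3. Counted over the CD45+ pool, radiation in MC38 called 0 of the 8 members tested by edgeR (1 at an unadjusted p under 0.05, and 1 by DESeq2), where 3.99% of 12615 genes were called. Radiation in Panc02-SIY called 5 of 8, all higher (Arg1, Arg2, Nos2, Ass1 and Slc7a2), where 16.5% of genes were called and 8.57% were called higher. The median log2 fold change of the 8 was 1.33, against -0.03 for all genes tested. The members were chosen with earlier results of these data known, so this count and median are a description. The split of called genes depends on the scaling, with 346 higher and 157 lower for radiation in MC38 on the TMM scale against 165 and 354 with library size alone, and 1081 and 997 against 1407 and 620 in Panc02-SIY. Between untreated tumors 5 of 8 were called, all higher in MC38, and between irradiated tumors 6, of which Arg2 was lower. These shares are close to the 63.7% and 63.6% of all genes called in the same comparisons, so these counts are no result about the members. The interaction called 1 member (Arg1), with 2.65% of genes called. These comparisons share groups and are not independent of each other. With richest libraries the 8 radiation changes in MC38 ran from 0.06 (Asl) to 1.48 (Nos2), and Arg1 alone was called. In that setting 11.7% of 12447 genes were called, so the count of 1 is no result about the members. In cDC-like barcodes MC38 RT then had too few libraries for a test, and Arg1 failed the filter on low counts.

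Within macrophage-like barcodes edgeR called 0 of 8 for radiation in MC38 (0 at an unadjusted p under 0.05, and 0 by DESeq2), where 7.42% of 9201 genes were called. In Panc02-SIY edgeR called 1 of 8, where 6.86% of genes were called (5 by DESeq2, whose share of all genes is not given). Untreated tumors differed in 2 of 8 (43.5% of genes), irradiated tumors in 5 of 8 (43.4%, 1 higher and 4 lower in MC38), and the interaction in 1 (1.2%). With macrophage-like and monocyte-like barcodes pooled, Arg1 alone was called for radiation in Panc02-SIY (3.7% of genes). Between the tumors 5 members were called without treatment and 6 after it, with 55% and 58.4% of genes. With richest libraries the Asl call between irradiated tumors fell under the fold limit (0.41 to 0.37), and Ass1 was called for radiation in MC38 (0.74, adjusted p = 0.0549). In T cell-like barcodes 4 members passed the filter on low counts, and 3 differed between untreated tumors and 4 between irradiated ones, with 16.7% and 16.2% of genes called. The Ass1 calls among these are lost when any of 6 of the 8 libraries is left out and with richest libraries (adjusted p = 0.15 and 0.124), and the Asl call without MC38 RT replicate 2 or 3. In cDC-like barcodes 2 of 5 differed in each of these comparisons (26.8% and 32.1% of genes), and in NK cell-like barcodes 2 of 3 (13.6% and 20.3%).

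**Figure D2:**
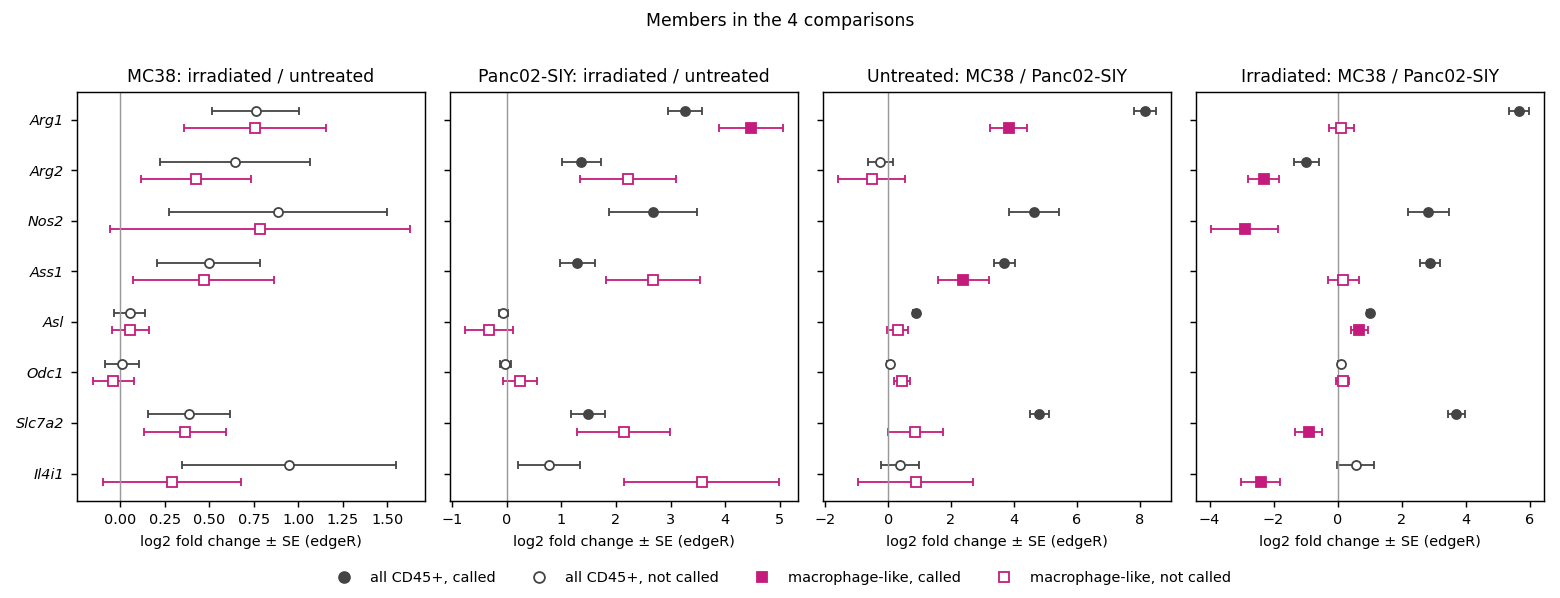
Log2 fold change (points, with SE) of 8 genes in 4 comparisons: radiation in MC38, radiation in Panc02-SIY, and MC38 against Panc02-SIY without and with radiation. Grey circles are all CD45+ barcodes, pink squares are macrophage-like barcodes, and filled symbols passed the test. Arg1 is called in 3 of the 4 comparisons over all CD45+ barcodes and none of the 8 genes is called for radiation in MC38. Nos2 in macrophage-like barcodes is left out where Panc02-SIY NT has no UMI.

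Slc7a2, the cationic amino acid transporter of activated macrophages, was far higher in leukocytes of MC38 than of Panc02-SIY tumors and rose after radiation in Panc02-SIY. Over all CD45+ barcodes it stood at 27.5, 36.2, 35.1 and 19.6 CPM in MC38 NT and at 45.7, 29.4, 41.0 and 29.1 CPM in MC38 RT. In Panc02-SIY NT it stood at 1.52, 1.61, 0.673 and 1.14 CPM, and in Panc02-SIY RT at 5.44, 2.11, 3.52 and 3.99 CPM. Every irradiated Panc02-SIY library lay above every untreated one, and all of them lay below all MC38 libraries, while the MC38 groups overlapped. The log2 fold change for radiation was 1.49 ± 0.32 (SE, adjusted p = 0.00428) in Panc02-SIY and 0.39 ± 0.23 (adjusted p = 0.433) in MC38. MC38 exceeded Panc02-SIY by 4.81 ± 0.30 in untreated tumors (adjusted p = 1.95e-09) and by 3.71 ± 0.27 in irradiated tumors (adjusted p = 1.49e-08). In such sums fewer cells of a type and less RNA per cell cannot be told apart. Macrophage markers differed between the tumors in the same direction as the gene. Their sum was 20414 to 26259 CPM in MC38, 1036 to 4768 CPM in Panc02-SIY NT and 2140 to 5565 CPM in Panc02-SIY RT. With radiation their median hardly changed, at 2802 CPM (NT) and 2927 CPM (RT) in Panc02-SIY and 24267 CPM (NT) and 23538 CPM (RT) in MC38. The median sum of 11 monocyte markers was higher after radiation, at 1421 CPM (NT) and 2334 CPM (RT) in Panc02-SIY. In MC38 it was 2489 CPM (NT) and 3351 CPM (RT). Monocyte-like barcodes were 1.78% of Panc02-SIY NT and 6.75% of Panc02-SIY RT. The part of these cell types in the result was not tested.

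Macrophage-like barcodes held 94.9% of the Slc7a2 UMIs of MC38 NT and 92.1% of those of MC38 RT, with cluster 8 alone holding 59.8% and 59.3%. Cluster 8 barcodes are deep, with a median of 25946 (NT) and 23273 (RT) UMIs. They held similar shares of the Asl UMIs, 58.9% and 55.9%. In Panc02-SIY NT 74.5% of only 94 UMIs were in unnamed clusters, mainly cluster 9 (46.8%), and in Panc02-SIY RT 39.1% of 207 UMIs were in macrophage-like and 24.6% in monocyte-like barcodes. Within macrophage-like barcodes the gene was at 32.0, 37.3, 39.6 and 21.2 CPM in MC38 NT, and at 53.3, 33.1, 41.6 and 33.4 CPM in MC38 RT. Panc02-SIY NT gave 30.9, 25.5, 0 and 13.5 CPM (4, 3, 0 and 3 UMIs) and Panc02-SIY RT gave 108, 71.5, 27.8 and 131 CPM (20, 15, 7 and 39 UMIs). Radiation in Panc02-SIY gave 2.14 ± 0.85 (adjusted p = 0.199), which was not called. The irradiated tumors differed in the opposite direction to the whole CD45+ pool, with -0.91 ± 0.41 for MC38 less Panc02-SIY (adjusted p = 0.0983). That call is lost without Panc02-SIY RT replicate 1, 2 or 4, with richest libraries (-0.79, adjusted p = 0.229) and in most alternatives, and with macrophage-like and monocyte-like barcodes pooled MC38 was higher, by 1.38 ± 0.29.

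Arg1, the cytosolic arginase, had the largest log2 fold changes of the members over all CD45+ barcodes in every comparison except radiation in MC38. Leukocytes of MC38 tumors held 550 to 885 CPM without treatment and 909 to 1462 CPM after radiation. Those of Panc02-SIY tumors held 4.11, 4.28, 2.02 and 1.90 CPM (27, 69, 24 and 83 UMIs) without treatment and 36.0, 34.2, 17.1 and 29.4 CPM (192, 421, 219 and 788 UMIs) after it. No irradiated library overlapped an untreated one of the same tumor. In Panc02-SIY the log2 fold change was 3.26 ± 0.31 (adjusted p = 2.12e-05), with means of 29.2 ± 8.51 and 3.08 ± 1.3 CPM (SD, n = 4). In MC38 it was 0.76 ± 0.24 (adjusted p = 0.113), with means of 1114 ± 256 and 704 ± 148 CPM, and was not called, but it was called with each barcode in its richest library (1.08 ± 0.27, adjusted p = 0.0246). MC38 NT exceeded Panc02-SIY NT by 8.16 ± 0.35 (adjusted p = 7.72e-11), and the irradiated tumors differed by 5.66 ± 0.30 (adjusted p = 9.91e-10). The change of the pooled level with radiation differed between the tumors, by -2.50 ± 0.39 for MC38 less Panc02-SIY (interaction term, adjusted p = 0.0188, and -2.17, adjusted p = 0.0776, with richest libraries). In these sums a change in cell numbers and a change in RNA per cell cannot be told apart.

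Nearly all Arg1 UMIs of MC38 tumors were in macrophage-like barcodes, 98.7% of 18924 in NT and 97.6% of 26326 in RT, and cluster 8 alone held 66.8% and 73.7% with 12.9% and 10.6% of the barcodes. The share of barcodes takes no account of depth. Cluster 8 barcodes of MC38 had a median of 25946 (NT) and 23273 (RT) UMIs, against 1702 and 1639 in the macrophage-like class. Cluster 8 also held 58.9% and 55.9% of the Asl UMIs of these groups. With all groups pooled, cluster 8 leads with Arg1, Cfb, Retnla, Fcgr2b, Apoe and Trem2, although Arg1 was not among the genes used to cluster. Retnla is not shown to be a trait of its MC38 barcodes: in macrophage-like barcodes of irradiated tumors it was low in MC38 and far higher in Panc02-SIY, as given below. In Panc02-SIY NT, 17.2% of 203 UMIs were in macrophage-like and 36.9% in T cell-like barcodes. In Panc02-SIY RT, 83.6% of 1620 UMIs were in macrophage-like barcodes, which were 2.57% of all barcodes. The UMIs of Panc02-SIY RT were held by few barcodes. The single richest barcode gave 77.1%, 36.1%, 76.3% and 17.1% of them in the 4 libraries, against 3.72% to 8.20% in MC38 libraries. Barcodes with at least 3 Arg1 UMIs numbered 990 in MC38 NT, 1062 in MC38 RT, 14 in Panc02-SIY NT and 45 in Panc02-SIY RT.

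Within macrophage-like barcodes Arg1 was at 1042, 882, 717 and 603 CPM in MC38 NT and 1369, 1051, 1759 and 1059 CPM in MC38 RT. In Panc02-SIY NT it was at 23.1, 8.51, 16.4 and 135 CPM (3, 1, 1 and 30 UMIs), and in Panc02-SIY RT at 926, 1792, 755 and 2074 CPM (172, 376, 190 and 617 UMIs). In this class the irradiated Panc02-SIY libraries thus lay in the range of MC38 or above it, and the untreated ones far below both. The class leaves out the larger unnamed clusters 2, 9 and 23 of Panc02-SIY, with 2119 barcodes in NT and 1193 in RT. These held 46, 4 and 1 Arg1 UMIs in NT and 115, 30 and 2 in RT. The log2 fold change for radiation was 4.47 ± 0.58 in Panc02-SIY (adjusted p = 0.00121) and 0.76 ± 0.40 in MC38 (adjusted p = 0.344). MC38 exceeded Panc02-SIY by 3.83 ± 0.58 in untreated tumors (adjusted p = 0.00015), but by only 0.12 ± 0.40 in irradiated tumors (adjusted p = 0.843). The interaction was -3.71 ± 0.72 (adjusted p = 0.0472) and is lost without Panc02-SIY RT replicate 2 (-3.56, adjusted p = 0.107), with the replicate number as a block (-3.75, adjusted p = 0.102) and at the finer clustering described below (-0.94, adjusted p = 0.957). Panc02-SIY NT replicate 4 sets the untreated level, and without it the radiation change is 6.44, the difference between untreated tumors 5.84 and the interaction -5.68, all called.

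The Panc02-SIY rise rests on cluster 8, with 10.3, 39.4, 33.7 and 1148 CPM in NT and 1402, 2461, 953 and 2803 CPM in RT. These levels come from 9, 3, 5 and 3 barcodes in NT and 7, 15, 20 and 21 in RT, so all NT libraries and 1 RT library are below the minimum of 10 barcodes used for tests, and NT replicate 4 lies above RT replicate 3. Cluster 10, which holds most Panc02-SIY macrophage-like barcodes, had 2 Arg1 UMIs in Panc02-SIY NT and 0 in Panc02-SIY RT. In MC38 it had 303 in NT and 453 in RT. With Panc02-SIY RT set at 3 UMIs, MC38 RT was at least 29.1-fold higher in this cluster, a bound that covers counting error only. At a finer clustering (resolution 2) 47 of the 63 cluster 8 barcodes of Panc02-SIY RT are monocyte-like and 15 macrophage-like, and the macrophage-like change falls to 1.64 (adjusted p = 0.823), so the class that carries the rise depends on the clustering. Macrophage-like and monocyte-like barcodes were therefore also pooled, a choice made after seeing the data. Arg1 was then at 8.25, 2.41, 1.44 and 44.2 CPM in Panc02-SIY NT and 186, 262, 93.4 and 202 CPM in Panc02-SIY RT. These groups do not overlap, and the log2 fold change of 3.48 ± 0.63 was called (adjusted p = 0.0202), though not in a fit of these 2 groups alone (adjusted p = 0.212). For the tumors it was 5.74 ± 0.59 without treatment and 3.01 ± 0.40 after radiation, both called, and the interaction of -2.73 ± 0.76 was not (adjusted p = 0.196). Without Panc02-SIY NT replicate 4 the radiation change is 5.74 and the difference between untreated tumors 8.02.

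The share of macrophage-like barcodes with an Arg1 UMI was compared with each barcode thinned to 1000 UMIs, leaving out 881, 931, 43 and 78 shallower ones in MC38 NT, MC38 RT, Panc02-SIY NT and Panc02-SIY RT. It was 37.8% ± 2.65 (SD, n = 4) in MC38 NT and 40.1% ± 4.34 in MC38 RT (exact two-sided permutation test, p = 0.429). Pooled over libraries, 1049 of 2789 barcodes had an Arg1 UMI in MC38 NT and 1249 of 3139 in MC38 RT. With each barcode only in its richest library these were 199 of 795 and 275 of 731, a wider gap. So the level MC38 shares hold only with shared barcodes counted in every library. The share was 1.61% ± 2.25 in Panc02-SIY NT and 14.2% ± 12.0 in Panc02-SIY RT (exact p = 0.0571, 0.114 adjusted over 6 comparisons), where 4 libraries against 4 cannot go below 0.0286. MC38 NT against Panc02-SIY NT reached that smallest value (adjusted p = 0.0857). T cell-like barcodes, which should lack the gene, gave 4.04%, 7.58%, 0.297% and 0.104% in the same order, so the Panc02-SIY NT share is close to a low background and the MC38 shares stand well above theirs. Unthinned, the macrophage-like shares were 48.6%, 49.5%, 3.33% and 12.8% and the T cell-like ones 9.96%, 17.9%, 0.456% and 0.562%. Median UMIs per barcode were 1148 to 2416 in macrophage-like barcodes of all groups, 1352 to 2692 in T cell-like barcodes of MC38 and 5135 to 8301 in those of Panc02-SIY.

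**Figure D3:**
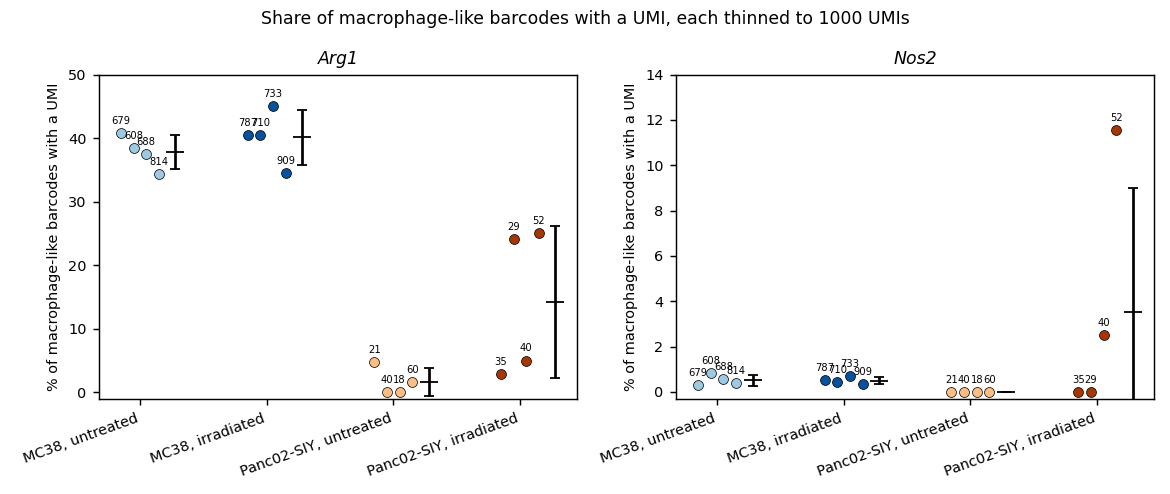
Percent of macrophage-like barcodes with at least 1 UMI of Arg1 or of Nos2 at a fixed 1000 UMIs per barcode, by group. Points are libraries with the number of barcodes beside them, and bars are means with SD. With shared barcodes counted in every library, Arg1 is near 40% in both MC38 groups, and spreads widely around 14.2% in Panc02-SIY RT.

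Small Arg1 levels outside the macrophage-like class also followed the tumor. T cell-like barcodes held 15.5 to 69.4 CPM in MC38 and 0.897 to 5.65 CPM in Panc02-SIY, with log2 fold changes of 2.99 ± 0.59 (NT) and 4.72 ± 0.55 (RT) that were both called. In cDC-like barcodes the irradiated tumors differed by 7.34 ± 1.06 (adjusted p = 0.000291) and the untreated by 5.02 ± 1.39 (adjusted p = 0.0223), and in NK cell-like barcodes by 6.12 ± 0.81 and 3.84 ± 1.13. These sizes move by over 1.5 times with single libraries, to 2.37 in untreated T cell-like barcodes without MC38 NT replicate 3, 6.31 in irradiated cDC-like barcodes without MC38 RT replicate 3, 5.37 in untreated NK cell-like barcodes without Panc02-SIY NT replicate 1, and 7.09 in irradiated ones without Panc02-SIY RT replicate 4, and each stays called. The 12 macrophage markers in these classes moved the same way: 813 to 1647 CPM in MC38 T cell-like barcodes against 161 to 303 CPM in Panc02-SIY, 1413 to 2571 against 223 to 629 CPM in cDC-like barcodes, and 602 to 1527 against 38.7 to 249 CPM in NK cell-like barcodes. The cDC-like barcodes of MC38 include a sub-cluster led by Capg, C1qa and Cd14, with 51 barcodes in NT and 57 in RT. A smaller unnamed one, with 3 barcodes in NT, 4 in RT and 0 in Panc02-SIY, leads with Arg1, Ear2, Lyz1, Fn1 and Slc7a2 and raises 8 macrophage markers. Their part in the Arg1 differences was not tested.

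Arg2, the mitochondrial arginase, was a gene of neutrophil-like barcodes in Panc02-SIY tumors and rose there after radiation in the CD45+ pool. It stood at 8.53, 5.52, 3.11 and 2.54 CPM in Panc02-SIY NT and at 21.8, 11.8, 10.5 and 8.16 CPM in Panc02-SIY RT, groups that overlap only through the first untreated and the last irradiated library. The log2 fold change was 1.37 ± 0.36 (adjusted p = 0.015). In MC38 it stood at 2.39 to 3.97 CPM in NT and 3.14 to 8.02 CPM in RT (0.64 ± 0.42, adjusted p = 0.481). Irradiated MC38 was below irradiated Panc02-SIY (-0.98 ± 0.38, adjusted p = 0.0332), a call that is lost without Panc02-SIY RT replicate 1 (-0.66, adjusted p = 0.119) and with richest libraries (adjusted p = 0.108).

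Neutrophil-like barcodes held 90.8% of the 293 Arg2 UMIs of Panc02-SIY NT with 6.97% of the barcodes, and 80.9% of the 614 of Panc02-SIY RT with 12.0% of the barcodes. Inside this class the level was 177, 144, 116 and 125 CPM in NT and 243, 164, 142 and 202 CPM in RT, which overlap (0.40 ± 0.20, adjusted p = 0.602). The sum of neutrophil markers over all CD45+ barcodes moved with the pool, from 770 to 2475 CPM in NT to 1446 to 3629 CPM in RT. In MC38, where neutrophil-like barcodes numbered 8 and 9, the few Arg2 UMIs (95 and 112) were in macrophage-like barcodes for 94.7% and 83.0%. In irradiated tumors macrophage-like Arg2 was 3.11 to 8.63 CPM in MC38 and 11.9 to 47.1 CPM in Panc02-SIY (-2.31 ± 0.47, adjusted p = 0.000316, and -1.65 without Panc02-SIY RT replicate 4).

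Nos2, the inducible nitric oxide synthase, was sparse everywhere. Over all CD45+ barcodes it gave 18, 47, 19 and 52 UMIs in MC38 NT and 66, 21, 53 and 34 in MC38 RT, or 2.53 to 9.73 and 3.36 to 20.4 CPM, and these groups overlap (0.88 ± 0.61, adjusted p = 0.509). Panc02-SIY NT gave 2, 8, 0 and 7 UMIs and Panc02-SIY RT 5, 10, 14 and 81, or 0 to 0.497 and 0.813 to 3.02 CPM, with every irradiated library above every untreated one. The Panc02-SIY change of 2.68 ± 0.81 was called (adjusted p = 0.0306), but the call is lost without Panc02-SIY RT replicate 4 (1.91, adjusted p = 0.133), without Panc02-SIY NT replicate 4 (2.44, adjusted p = 0.119) and with richest libraries (adjusted p = 0.121). MC38 was higher by 4.64 ± 0.80 in untreated (adjusted p = 0.000101) and by 2.84 ± 0.64 in irradiated tumors (adjusted p = 0.00116). Single libraries move these sizes: the radiation change in Panc02-SIY is 3.31 and the difference between untreated tumors 5.26 without Panc02-SIY NT replicate 2, and the irradiated tumors differ by 2.17 without MC38 RT replicate 1 and by 3.59 without Panc02-SIY RT replicate 4.

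In MC38 99.3% and 98.3% of Nos2 UMIs were in macrophage-like barcodes. In Panc02-SIY NT 76.5% of the 17 UMIs were in neutrophil-like barcodes and none in macrophage-like ones, and in Panc02-SIY RT 71.8% of 110 were macrophage-like. These 79 UMIs came from libraries with 0, 3, 12 and 64 of them, so library 4 carried most. Summed over libraries, macrophage-like Nos2 was at least 14.8-fold higher in Panc02-SIY RT than in NT, with the untreated group set at 3 UMIs, a bound that covers counting error only. The edgeR test did not call it (adjusted p = 0.37). Irradiated MC38 had less Nos2 per macrophage-like UMI than irradiated Panc02-SIY (-2.90 ± 1.04, adjusted p = 0.0564), a call lost without Panc02-SIY RT replicate 3, or without replicate 4 (-0.96, adjusted p = 0.673). With macrophage-like and monocyte-like barcodes pooled, Nos2 in the irradiated tumors differed by 0.09 ± 0.88 (adjusted p = 0.941). With richest libraries Nos2 failed the filter on low counts in the macrophage-like class and was not tested. At 1000 UMIs a Nos2 UMI was found in 0.517% of macrophage-like barcodes of MC38 NT, 0.486% of MC38 RT and 3.51% ± 5.48 (7 of 156) of Panc02-SIY RT, and in 0 of 139 of Panc02-SIY NT, which allows a share of up to 2.16%. That limit is above the MC38 shares, so a difference between untreated tumors was not detectable at this depth. T cell-like barcodes, which should lack the gene, gave 0 of 91, 0 of 119, 0 of 2504 and 1 of 2152 in MC38 NT, MC38 RT, Panc02-SIY NT and Panc02-SIY RT, at the median depths given for Arg1.

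Ass1 and Asl make arginine from citrulline, and for radiation Ass1 passed the test in Panc02-SIY while Asl passed in neither tumor. Ass1 stood at 151, 238, 220 and 164 CPM in MC38 NT and at 243, 254, 249 and 273 CPM in MC38 RT, without overlap (0.50 ± 0.29, adjusted p = 0.417, not called). It stood at 33.4, 10.9, 20.4 and 9.59 CPM in Panc02-SIY NT and at 66.8, 38.2, 43.0 and 36.3 CPM in Panc02-SIY RT, again without overlap (1.3 ± 0.31, adjusted p = 0.00932). The 11 monocyte markers moved with it over all CD45+ barcodes, from 1134 to 1605 CPM in NT to 1849 to 2808 CPM in RT, as did the share of monocyte-like barcodes, 1.78% and 6.75%. Within monocyte-like barcodes Ass1 was not called (0.21 ± 0.19, adjusted p = 0.768). MC38 exceeded Panc02-SIY by 3.70 ± 0.33 (adjusted p = 1.25e-07) without treatment and by 2.90 ± 0.31 (adjusted p = 1.12e-06) after radiation. Asl was nearly level, at 34.2 to 39.8 CPM in MC38 and 21.6 to 28.2 CPM in Panc02-SIY. Its radiation changes were 0.05 ± 0.08 in MC38 (adjusted p = 0.824) and -0.06 ± 0.08 in Panc02-SIY (adjusted p = 0.963), signs that flip with library size alone. The tumors differed by 0.88 ± 0.08 and 1.00 ± 0.08 in Asl (adjusted p = 1.34e-07 and 5.38e-08).

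Ass1 was present in several classes. In Panc02-SIY it was found in monocyte-like barcodes (162, 101, 95 and 103 CPM in NT, and 114, 128, 116 and 162 CPM in RT) and in cDC-like barcodes (112, 34.3, 70.6 and 76.6 CPM in NT, and 127, 113, 115 and 143 CPM in RT). The cDC-like libraries did not overlap, but the change of 0.76 ± 0.23 was not called (adjusted p = 0.113). Monocyte-like barcodes held 16.6% of all Ass1 UMIs in Panc02-SIY NT and 39.2% in Panc02-SIY RT. In macrophage-like barcodes Panc02-SIY NT gave 139, 17.0, 16.4 and 4.50 CPM (18, 2, 1 and 1 UMIs), so 1 library holds most, and Panc02-SIY RT gave 662, 214, 195 and 90.7 CPM (2.68 ± 0.86, adjusted p = 0.114). MC38 NT was higher than Panc02-SIY NT in this class by 2.39 ± 0.81 (adjusted p = 0.0357), a call lost without Panc02-SIY NT replicate 4 (1.79, adjusted p = 0.173) and larger without replicate 1 (4.52). MC38 cDC-like barcodes held 197 to 354 CPM and exceeded those of Panc02-SIY by 1.72 ± 0.23 in untreated and 1.47 ± 0.22 in irradiated tumors, both called.

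Cluster 10 is the macrophage-like cluster that both tumors fill most evenly, and it was tested alone as a choice made after seeing the data. Its name is less stable in Panc02-SIY. At the finer clustering (resolution 2) 26 of its Panc02-SIY NT barcodes are macrophage-like and 117 unnamed, and 85 and 55 in Panc02-SIY RT. In MC38, 340 (NT) and 358 (RT) stay macrophage-like. Ass1 rose there with radiation in MC38, from 37.2, 60.2, 56.7 and 42.9 CPM to 134, 131, 93.9 and 101 CPM (1.13 ± 0.30, adjusted p = 0.0256). These groups do not overlap, and 5.49% of the 3077 genes tested in the cluster were called in this comparison. The call is lost without MC38 NT replicate 4 or MC38 RT replicate 2. Panc02-SIY NT had no Ass1 UMI in cluster 10, which makes MC38 NT at least 5.41-fold higher. Asl was higher in MC38 in macrophage-like barcodes of irradiated tumors (0.68 ± 0.27, adjusted p = 0.0482), a call lost with library size alone and without Panc02-SIY RT replicate 4, and kept with richest libraries (0.61, adjusted p = 0.0895).

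Odc1, the first enzyme of polyamine synthesis, was found in all classes and was called in no comparison of the CD45+ pool. It stood at 110 to 131 CPM in MC38 NT, 96.7 to 124 in MC38 RT, 120 to 158 in Panc02-SIY NT and 130 to 148 in Panc02-SIY RT. Its log2 fold changes were 0.01 ± 0.10 and -0.02 ± 0.09 for radiation and 0.07 ± 0.09 and 0.10 ± 0.10 between the tumors, none called, and each changes sign with library size alone. By class it differed more. T cell-like barcodes held 711, 517, 763 and 888 CPM in MC38 NT and 736, 567, 988 and 449 CPM in MC38 RT, against 247, 141, 161 and 131 CPM in Panc02-SIY NT and 263, 233, 286 and 196 CPM in Panc02-SIY RT. No MC38 library overlapped a Panc02-SIY one, by 2.02 ± 0.22 in untreated and 1.47 ± 0.22 in irradiated tumors, also called with library size alone (2.13 and 1.5). The MC38 T cell-like class is small, with 22 to 48 barcodes a library, and clusters 0, 14 and 18 hold it in both tumors in unequal parts. Cluster 18 held 51 of the 113 T cell-like barcodes of MC38 NT and 237 of their 340 Odc1 UMIs. In Panc02-SIY NT it held 175 of 2550 barcodes and 704 of 3114 UMIs. After radiation it held 55 of 138 and 264 of 408 in MC38, and 227 of 2214 and 1018 of 3355 in Panc02-SIY. The part of this unequal mix in the difference between the tumors was not tested. In cluster 14, which leads with Csf2, Ccl1, Cd4 and Cd40lg, Odc1 was at 229 to 850 CPM in MC38 and 212 to 428 CPM in Panc02-SIY.

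NK cell-like Odc1 was higher in MC38 by 0.83 ± 0.21 (NT) and 0.69 ± 0.21 (RT), calls that are lost without MC38 NT replicate 1 and without MC38 RT replicate 3 respectively. With macrophage-like and monocyte-like barcodes together it was 88.0 to 107 CPM in MC38 and 14.4 to 77.0 CPM in Panc02-SIY, and MC38 was higher by 1.17 ± 0.24 and 1.02 ± 0.19. Fibroblast-like barcodes, which were found only in Panc02-SIY libraries although live CD45+ sorting should remove fibroblasts, held 17.7% of the Odc1 UMIs of Panc02-SIY NT at 160 to 248 CPM. This name is not stable. At the finer clustering (resolution 2) the cluster of 282 barcodes, 201 in Panc02-SIY NT and 81 in RT, stays unnamed because classes tie.

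Ido1, the tryptophan-degrading dioxygenase, was close to absent. It gave 10, 13, 25 and 38 UMIs in all in MC38 NT, MC38 RT, Panc02-SIY NT and Panc02-SIY RT, at most 1.16 CPM in any library, and failed the filter on low counts in every population, so it was not tested. Fibroblast-like barcodes held 46 of these 86 UMIs (53.5%) with 0.983% of all barcodes, 19 of them in Panc02-SIY NT replicate 4 and 24 in Panc02-SIY RT replicate 4. Such barcodes should not pass a CD45+ sort and lose their name at the finer clustering, so these UMIs are not shown to be of leukocytes or of fibroblasts. Its levels could not be compared between groups at this depth.

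Il4i1, the secreted amino acid oxidase, belonged to cDC-like barcodes, which held 73.9% of its 1148 UMIs with 4.03% of the barcodes. Over all CD45+ barcodes it stood at 3.56 to 8.54 CPM in MC38 NT, 5.38 to 13.8 in MC38 RT, 1.24 to 12.8 in Panc02-SIY NT and 4.85 to 12.9 in Panc02-SIY RT, and all groups overlapped. Radiation gave 0.95 ± 0.60 in MC38 (adjusted p = 0.46) and 0.77 ± 0.57 in Panc02-SIY (adjusted p = 0.388), the latter called without Panc02-SIY NT replicate 1 (1.48, adjusted p = 0.0667). In cDC-like barcodes it was at 63.1, 46.4, 52.0 and 42.1 CPM in MC38 NT and 174, 54.8, 95.1 and 148 CPM in MC38 RT (1.27 ± 0.65, adjusted p = 0.978, but 0.00215 with no filter on low counts). The MC38 RT libraries held 74, 63, 77 and 80 cDC-like barcodes, of which only 4, 8, 23 and 29 had their most UMIs in that library. With richest libraries this comparison could not be tested. In Panc02-SIY the values were 191, 13.1, 120 and 40.4 CPM in NT and 116, 196, 104 and 71.2 CPM in RT (0.49 ± 0.56). The spread between untreated Panc02-SIY libraries is as wide as any change.

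The cDC-like barcodes with mature, migratory markers (mregDC-like, 2 sub-clusters led by Fscn1, with Ccr7 among the leading genes of 1) gave the highest Il4i1 levels, at 235 to 540 CPM (4 to 13 UMIs a library) in MC38 NT, 382 to 543 in MC38 RT, 220 to 667 in Panc02-SIY NT and 407 to 886 in Panc02-SIY RT. The sum of the 8 mregDC markers in cDC-like barcodes was also wide, from 435 to 4254 CPM in Panc02-SIY NT and 1587 to 4394 in Panc02-SIY RT, and their part in cDC-like Il4i1 was not tested. Macrophage-like Il4i1 was 2.25 to 6.15 CPM in MC38 RT and 3.36 to 59.2 CPM in Panc02-SIY RT (-2.41 ± 0.61, adjusted p = 0.00328, and -1.56 without Panc02-SIY RT replicate 1). At the finer clustering that sign turned, with an adjusted p of 0.686, and with richest libraries Il4i1 failed the filter on low counts.

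**Figure D4:**
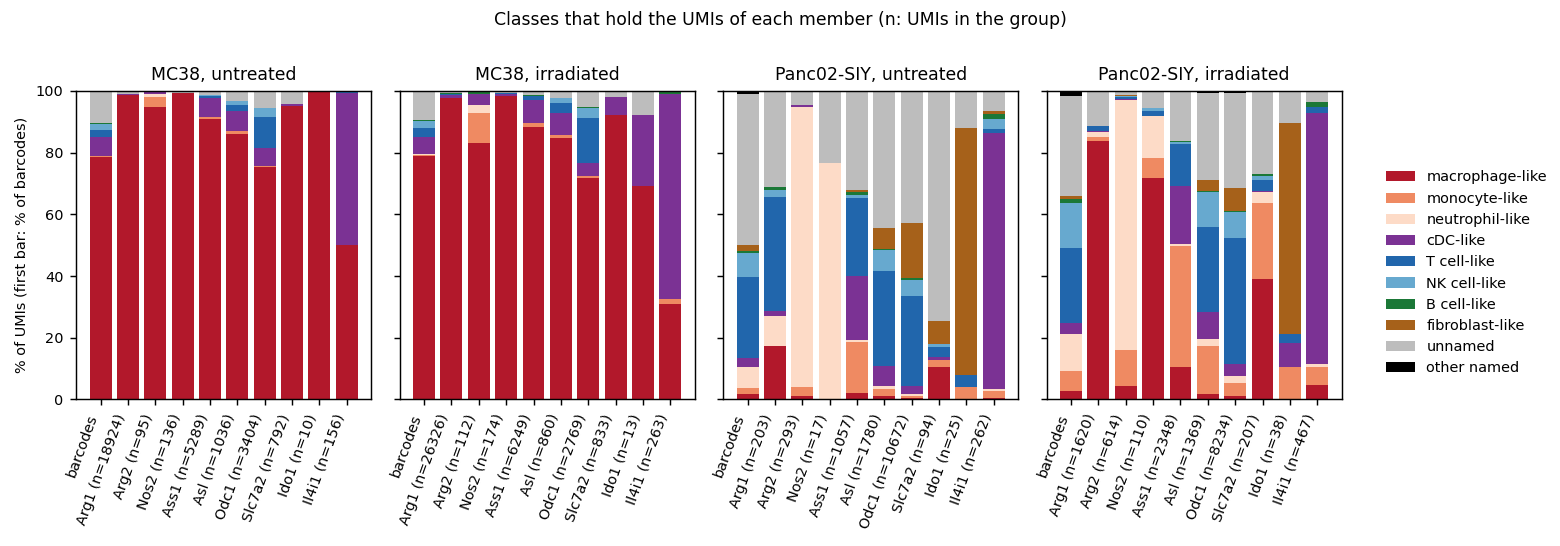
Percent of each gene's UMIs that fall in each class, by group, with the share of barcodes as the first bar. Macrophage-like barcodes hold 98.7% of Arg1 UMIs in MC38 NT and 17.2% in Panc02-SIY NT, neutrophil-like barcodes hold 90.8% of Arg2 UMIs in Panc02-SIY NT, and cDC-like barcodes hold 82.8% of Il4i1 UMIs there.

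Other genes of these pathways were followed in fixed lists of 113 genes, of which 109 are in the files and 91 were tested over all CD45+ barcodes, all on the TMM scale. Radiation raised 9 and lowered 0 of them in MC38 (9.89%, where 3.99% of all genes were called and 2.74% called higher), and raised 21 and lowered 8 in Panc02-SIY (31.9%, where 16.5% were called). The MC38 split is set by the scaling, with 4 higher and 5 lower with library size alone, and in Panc02-SIY it was then 26 and 7. With richest libraries 15 were higher and 13 lower of 88 tested in MC38 (31.8%, against 11.7% of all genes), and 19 and 9 in Panc02-SIY. The genes named next kept their direction and their call under both alternatives, except where given. Sesn2, a stress-induced inhibitor of mTORC1 signaling, rose in both tumors, by 1.20 ± 0.16 in MC38 (10.1 to 21.6 CPM) and 1.39 ± 0.15 in Panc02-SIY (9.04 to 24.4 CPM). Smox, which oxidizes the polyamine spermine, rose by 0.58 ± 0.13 and 1.04 ± 0.13. Hif1a, a transcription factor that can drive Arg1 and Nos2, rose by 0.61 ± 0.12 in MC38. Phgdh, the first enzyme of serine synthesis, fell in Panc02-SIY from 63.6 to 33.4 CPM (-1.01 ± 0.12), and Oaz1, the antizyme that restrains Odc1, from 947 to 755 CPM (-0.40, but -0.33 and under the fold limit with library size alone). Kmo, the kynurenine hydroxylase, rose there from 6.91 to 20.5 CPM (1.57 ± 0.39, adjusted p = 0.0115).

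By list, radiation in Panc02-SIY raised 1 and lowered 1 of 14 further arginine, urea cycle and proline genes, 0 and 1 of 12 nitric oxide and tetrahydrobiopterin genes, 2 and 2 of 17 polyamine genes, and 4 and 0 of 16 tryptophan genes. It raised 3 and lowered 4 of 14 amino acid deprivation genes and raised 11 of 18 genes listed as regulators of Arg1, Nos2 or Ido1. That list also holds Retnla, Chil3 and Mrc1, which are macrophage activation genes. Chil3 is also 1 of the monocyte markers and Mrc1 is 1 of the macrophage markers. These counts stand beside 8.57% of all genes called higher and 16.5% called in either direction. The lists are short and were written with earlier results of these data known, so the counts are a description. In MC38 the same lists gained 1, 1, 2, 1, 1 and 3 genes and lost none. The median change of all pathway genes was 0.01 in MC38 and 0.07 in Panc02-SIY, beside 0.03 and -0.03 for all genes.

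Between untreated tumors 45 of the 91 were higher in MC38 and 22 lower, and 43 and 19 after radiation. These are 73.6% and 68.1% of the genes, close to the 63.7% and 63.6% of all genes called, and the split turns to 34 and 30, and 29 and 38, with library size alone, so the counts are no result about these pathways. Gatm and Gamt, which make creatine from arginine and glycine, were higher in MC38 by 4.09 ± 0.37 and 3.30, with Gatm at 846 against 57.5 CPM. Chil3, a chitinase-like protein of alternatively activated macrophages and monocytes, was higher there by 2.68. Tph1, the hydroxylase that starts serotonin synthesis, and Gchfr, which regulates tetrahydrobiopterin synthesis, were lower in MC38 (-6.92 and -4.50).

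In macrophage-like barcodes radiation raised 7 and lowered 3 of 72 pathway genes in MC38 (13.9%, where 7.42% of all genes were called; 5 and 5 with library size alone). Among them were Sesn2 (1.19 ± 0.20), Hif1a (0.60) and Sat1 (0.55, a polyamine acetyltransferase, whose call is lost with library size alone, adjusted p = 0.153). In Panc02-SIY it raised 8 and lowered 0 (11.1%, where 6.86% were called). Chil3 went from 3.06 to 328 CPM (6.40 ± 1.07), Hif1a from 163 to 420 CPM (1.42 ± 0.23), and Gch1, which makes the cofactor that Nos2 needs, rose by 1.47 ± 0.47 (adjusted p = 0.073). Monocyte markers moved with these genes, as given above, and Chil3 is 1 of them. With macrophage-like and monocyte-like barcodes together Hif1a rose by 0.84 ± 0.14, from 195 to 361 CPM. Between irradiated tumors Retnla, a secreted protein of alternatively activated macrophages, differed most, at 4.16 CPM in MC38 and 1713 CPM in Panc02-SIY (-8.40 ± 1.94). In T cell-like and cDC-like barcodes of Panc02-SIY, Sesn2 rose with radiation from 5.26 to 17.2 CPM (1.58 ± 0.26) and from 14.1 to 59.1 CPM (2.01 ± 0.30).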

How the data were processed

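The authors deposited filtered gene by barcode counts of UMIs for 16 libraries made with 10x Genomics 3' v3.0 reagents and, per the labels' processing notes, bcl2fastq 2.20.0, Cell Ranger 3.1.0 and mm10. These deposited counts were used as they are, in 28678 barcodes. The member genes and the pathway lists were chosen with earlier results of these data known.

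Clusters were drawn with scanpy 1.11.5 from 2000 variable genes, leaving out 118 member and pathway genes, with 30 principal components, 20 neighbours and Leiden resolution 1. A class was named where at least 3 markers of a list were raised (log2 above 1, pseudocount 20 CPM). Scrublet marked 31 barcodes (0.1081%) and so did not work as a doublet caller, hence no barcode was removed, and removing the highest 5% of scores was an alternative.

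UMIs were summed per library and class, leaving out libraries with fewer than 10 barcodes, and tested over all genes with edgeR 4.0.16 (filterByExpr with a minimum of 10 and 15 in all, TMM, robust quasi-likelihood F test, 1 coefficient per group, R 4.3.3). Benjamini-Hochberg adjustment ran over all genes tested, and a call needed an adjusted p under 0.1 and a fold above 1.3. The SE is the log2 fold change divided by the square root of F. Shares were compared with an exact permutation test over libraries, two-sided. Intervals and floors cover counting error only. Named were the 9 members and, per population and comparison, up to 4 called pathway genes in each direction with the largest folds and no overlap of groups, and those whose expression most resembled Arg1, Nos2, Ido1 or Il4i1 over classes. DESeq2 1.42.0 was an alternative. On simulated data for radiation in Panc02-SIY, changes of 2-fold were called in 88% of genes over all CD45+ barcodes (12355 genes) and 19.1% in macrophage-like barcodes (8940 genes).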

Additional observations from a re-analysis of the deposited data

Results flagged for a closer look

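Of 117 sets of 4 libraries with at least 20 UMIs, 11 held a library whose gap to its nearest neighbour exceeded Dixon's 95% critical value, and chance alone marks about 5% of such sets. Among Arg1 values, Panc02-SIY NT replicate 4 stood high in macrophage-like barcodes, at 135 CPM, and low in T cell-like barcodes, at 1.74 CPM. Nos2 over all CD45+ barcodes stood high in Panc02-SIY RT replicate 4, at 3.02 CPM. Ass1 stood high in macrophage-like barcodes of MC38 RT replicate 4 (291 CPM) and of Panc02-SIY NT replicate 1 (139 CPM), and in monocyte-like barcodes of the latter library (162 CPM). Asl stood high in Panc02-SIY RT replicate 2, at 25.8 CPM over all CD45+ barcodes and low in NK cell-like barcodes of the same library, at 20.5 CPM. Slc7a2 reached 93.0 CPM in cDC-like barcodes of MC38 RT replicate 3, Ido1 reached 0.525 CPM over all CD45+ barcodes of Panc02-SIY NT replicate 4, and Il4i1 reached 6.15 CPM in macrophage-like barcodes of MC38 RT replicate 4.

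The change of summed Arg1 counts with radiation differed between the tumors by the interaction term of the edgeR fit. The log2 fold change in MC38 less that in Panc02-SIY was -2.50 over all CD45+ barcodes and -3.71 in macrophage-like barcodes. The first stayed called in every alternative run for it, and the second was lost with the replicate block, at resolution 2 and without Panc02-SIY RT replicate 2.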

How the results depend on the processing

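Of 59 member differences called, 38 were called in every alternative that could be run for them and 21 were lost in at least 1. An alternative in which a gene failed the filter or the population was not refitted was not counted as a loss. Of 70 results followed, 61 were tested with richest libraries, 58 with the filter on barcodes and 40 at resolution 2. The 59 include populations chosen after seeing the data. For radiation in MC38 over all CD45+ barcodes, the count of members called went from 0 to 1 with DESeq2, the replicate block, richest libraries, a filter on barcodes (500 or more genes, mitochondrial UMIs up to 10%) and thinning to 1 mean depth, and to 3 in a fit of the 2 groups alone. The interaction went from 1 to 2 with DESeq2. In macrophage-like barcodes radiation in MC38 went from 0 to 1 in a fit of 2 groups, without the highest Scrublet scores and at resolution 2. Radiation in Panc02-SIY went from 1 to 5 with DESeq2, 3 with no filter on low counts and 0 at resolution 2. Irradiated tumors went from 5 to 3 at an adjusted p under 0.05, with the replicate block and with the filter on barcodes, to 2 with richest libraries and at resolution 2, and to 1 when thinned. The interaction went from 1 to 0 with the replicate block and at resolution 2. For most of these alternatives the share of all genes called is not given, so the counts are not read as a result about the members. At resolution 2, 3 signs turned in macrophage-like barcodes, none of them called: Il4i1 to -6.54 for radiation in Panc02-SIY and to 6.07 between irradiated tumors, and Slc7a2 to 9.47 between irradiated tumors. The cause was not tested.

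The Arg1 share in Panc02-SIY rose by 8.81 percentage points at 500 UMIs and by 16.9 with richest libraries, both past the threshold. The Nos2 share difference in MC38 turned to 0.0635 points unthinned and 1.22 with richest libraries, and between untreated tumors was 0.784 with richest libraries. Leaving out 1 library at a time gave, over all CD45+ barcodes, 0 to 0 members called for radiation in MC38, 4 to 6 in Panc02-SIY, 5 to 5 between untreated tumors, 5 to 6 between irradiated tumors and 1 to 2 for the interaction. In macrophage-like barcodes the ranges were 0 to 0, 1 to 3, 2 to 2, 2 to 5 and 0 to 1. Arg1 share differences ranged from 0.668 to 4.2 points for radiation in MC38, 9.06 to 16.4 in Panc02-SIY and 35.2 to 37.3 between untreated tumors. Nos2 share differences ranged from -0.105 to 0.0709, 0.833 to 4.68 and 0.415 to 0.591.

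Replicate numbers were not taken as pairs, since not every same-numbered pair correlated: the correlations ran from -0.146 to 0.745, with Panc02-SIY NT and RT at 0.399, -0.146, 0.32 and 0.745 for numbers 1 to 4 and MC38 NT and RT at most 0.087. Depth limits Ido1, Nos2 and the Panc02-SIY macrophage-like class, whose 4 NT libraries hold 35 Arg1 UMIs in all.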

Other observations

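Genes whose levels over the classes and groups ran most like those of the members were listed over 29 points (10 classes in up to 4 groups, log2 of CPM plus 10) and 7126 genes, as a description, since the points of a group share libraries. For Arg1 they were Ccl12 (Pearson r = 0.914), Slc7a2 (0.898) and Ccl8 (0.873), and for Nos2 Fam20c (0.912), Slc7a2 (0.819) and Ccl8 (0.774). The transporter Slc7a2 was thus listed for both arginine-consuming enzymes. Nos2 was highest in macrophage-like barcodes of Panc02-SIY RT (mean 69.3 CPM), where Slc7a2 was also highest (84.5 CPM). In those of MC38 NT, MC38 RT and Panc02-SIY NT it was at 5.97, 10.9 and 0 CPM, near or under the 10 CPM added. The Nos2 correlations therefore rest on few points. For Ido1 they were Has1 (0.922), Brip1 (0.887) and Tnc (0.887), of which Has1 and Tnc make or form extracellular matrix. Ido1 reached at most 8.23 CPM, less than the 10 CPM added, in fibroblast-like barcodes of Panc02-SIY RT. Has1, Brip1 and Tnc were also highest there, so these correlations rest on few points. For Il4i1 they were Kynu, the kynureninase of the tryptophan path, and the mature dendritic cell genes Ccl22 and Fscn1 (0.914 each).

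Whether Arg1 and Nos2 lay in the same macrophage-like barcodes rests on few barcodes and changed with the settings. At 1000 UMIs per barcode, 10 of 14 barcodes with a Nos2 UMI in MC38 NT also had an Arg1 UMI, 11 of 15 did in MC38 RT and 5 of 7 in Panc02-SIY RT. Among the barcodes with an Arg1 UMI, 0.953% in MC38 NT and 0.881% in MC38 RT had a Nos2 UMI, against 0.23% and 0.212% of those without. With each barcode only in its richest library, 2 of 6 did in MC38 NT (1.01% against 0.671%) and 6 of 8 in MC38 RT. At 500 UMIs per barcode, 11 of 18 did in MC38 NT, 7 of 20 in MC38 RT (0.651% against 0.434%) and 1 of 4 in Panc02-SIY RT. These are shares of barcodes, which share libraries and, in MC38, barcode sequences, and were not tested.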
